A study of Mus musculus with 10 samples.

Results

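T cell receptor gene segments are the variable and constant pieces from which T cells assemble their antigen receptors, and their transcripts were read here in splenic T cells and dendritic cells. The segments were the genes with symbols beginning Trav, Trac, Trbv, Trbc, Trgv, Trdv, Trdc or Tcrg- and a T cell receptor class in the GENCODE M21 annotation of GRCm38. Of 183 such genes among the 45706 genes of the deposited table, 144 were described. They were selected on their measured level, as segments above 0 TPM in at least 1 T cell library. TPM, the unit of all levels below, are abundances per transcript length that sum to the same total in every library. The lowest of these 144 segments was Trav22, which reached 0.41 TPM. The 39 other candidates were listed at 0 in all T cell and all dendritic cell libraries. No difference between genotypes entered this rule.

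RNA from mouse spleen was sequenced for T cells and for type 2 conventional dendritic cells (cDC2s). T cells came from Cd47ΔT mice, whose name says that the surface protein gene Cd47 is deleted in T cells (2 libraries), and from Cd47f/f mice with floxed Cd47 alleles (2 libraries). The cDC2s came from Cd47ΔT mice (3 libraries) and Cd47f/f mice (3 libraries). The sources used here do not give the Cre line, the deleted exons, strain, age or how cells were isolated. Whether the libraries of a group stem from different mice is not in the labels, and p-values then cover only the spread among these libraries, which can be technical. The depth behind each value is unknown, because TPM keep none.

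Each T cell joins 1 variable segment to a joining segment, with a diversity segment between them in the beta and delta chains, and the joined exon is spliced to a constant segment. Alpha and beta chains pair in the receptor of most splenic T cells, and gamma and delta chains pair in a small lineage of their own. The delta locus lies within the alpha locus, and some variable segments, marked dv in their symbols, serve both chains. Joining precedes export from the thymus, so a mature population carries the variable segments its cells were selected with, and transcript shares reflect both the number of cells with a segment and the RNA per cell.

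The 144 segments comprised 102 alpha segments (1 constant, 101 variable), 27 beta segments (2 constant, 25 variable), 10 gamma segments (4 constant, 6 variable) and 5 delta segments (1 constant, 4 variable). Alpha and delta segments lie on chromosome 14, beta segments on chromosome 6 and gamma segments on chromosome 13. Of 34 annotated variable pseudogenes 9 were above 0 TPM, against 127 of 141 variable genes. The highest pseudogene value was 11.7 TPM, and the highest value of a variable gene was 221 TPM. All 80 joining segments of the table, which are 29 to 72 bases long, were listed at 0 TPM in all 10 libraries, among them Traj18 and Traj33 of invariant receptors. Their usage could therefore not be read.

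The 2 called beta variable segments, Trbv16 and Trbv31, and a pair of the highest ones that did not pass, Trbv29 and Trbv3, are shown by their last 60 bases, where the segment meets the joining region. The sequences are GENCODE M21 transcripts of GRCm38, written 5′ to 3′, and capitals mark the last in-frame TGT, the codon of the conserved cysteine that opens the third hypervariable loop. Of 127 variable segments with a coding annotation, 114 had an in-frame TGT in their last 30 bases. Trbv29 lies at chr6:41271394-41271881 (plus strand), Trbv16 at chr6:41151740-41152230 (plus), Trbv3 at chr6:41048290-41048828 (plus) and Trbv31 at chr6:41557691-41558452 (minus), beyond the constant segments and in the inverse orientation.
Trbv29: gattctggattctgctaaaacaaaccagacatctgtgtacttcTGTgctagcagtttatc
Trbv16: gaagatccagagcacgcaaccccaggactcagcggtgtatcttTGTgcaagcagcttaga
Trbv3: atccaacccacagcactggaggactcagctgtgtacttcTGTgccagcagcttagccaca
Trbv31: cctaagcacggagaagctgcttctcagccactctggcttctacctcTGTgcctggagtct

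The gamma constant segments are shown because all tested members passed the genotype comparison below and because parts of them are nearly the same. In the first 90 bases of each transcript, capitals mark bases that differ from Tcrg-C1. Tcrg-C2 differed at 1 of 90 bases and Tcrg-C4 at 12, so reads from this stretch of Tcrg-C1 and Tcrg-C2 could hardly be told apart, and the split between these 2 genes is uncertain. Tcrg-C1 lies at chr13:19214103-19217024 (plus), Tcrg-C2 at chr13:19304649-19307551 (minus) and Tcrg-C4 at chr13:19344558-19352756 (plus).
Tcrg-C1: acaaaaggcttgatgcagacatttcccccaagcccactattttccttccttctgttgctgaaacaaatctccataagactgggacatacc
Tcrg-C2: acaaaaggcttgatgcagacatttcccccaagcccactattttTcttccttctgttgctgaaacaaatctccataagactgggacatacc
Tcrg-C4: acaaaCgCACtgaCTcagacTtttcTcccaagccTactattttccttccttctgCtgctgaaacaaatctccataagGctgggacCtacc

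The targeted gene Cd47 read 40.4 and 51.7 TPM in Cd47ΔT T cell libraries, against 138 and 233 TPM in Cd47f/f libraries, and 135 to 159 TPM in Cd47ΔT cDC2 libraries, against 140.2 to 162 TPM in Cd47f/f ones. The T cell libraries carried the T cell identity of their label in both genotypes. Summed TPM of 11 T cell markers were 5440 and 5066 in Cd47ΔT libraries and 5163 and 5133 in Cd47f/f libraries, and none of the markers was called. Markers of other cells differed between the genotypes. Summed TPM of 6 NK cell markers were 190 and 314 in Cd47ΔT libraries, against 44.0 and 69.2 in Cd47f/f libraries, with 5 of 6 called higher and none at 0 in all libraries. Summed TPM of 7 B cell markers were 64.2 and 139 in Cd47ΔT libraries, against 16.5 and 20.6 in Cd47f/f libraries, and all 6 tested were called higher. Summed TPM of 9 macrophage and monocyte markers were 318 and 555 in Cd47ΔT libraries, against 37.1 and 69.5 in Cd47f/f libraries, with all 9 called higher. All 5 plasma cell markers were called higher as well. Of tested conventional dendritic cell markers 4 of 5 were called higher, of erythroid markers 3 of 4 and of neutrophil markers 1 of 3. Calls are those of the limma comparison described below, in which 8.5% of all genes were called higher and 0.875% lower. The part of these markers in the results below was not tested.

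Receptor segments made up 0.797% and 0.737% of all TPM in Cd47ΔT T cell libraries, against 0.834% and 0.836% in Cd47f/f libraries. The genotypes did not overlap, and the mean was 0.919 times as high in Cd47ΔT libraries. In bulk libraries fewer cells of a type and less RNA per cell cannot be told apart, here and in every level below. The CD3 genes, which encode the signalling chains of the receptor, summed to 2384 and 2151 TPM in Cd47ΔT libraries and 2214 and 2156 TPM in Cd47f/f libraries, with overlap. The summed alpha and beta constant TPM per CD3 TPM were 1.94 and 1.96 in Cd47ΔT libraries, against 2.22 and 2.18 in Cd47f/f libraries.

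For each segment that reached 1 TPM in 2 or more T cell libraries, the genotypes were compared with limma on log2(TPM + 1) in a fit of all 12453 genes that passed this filter. Log2 fold changes (Cd47ΔT over Cd47f/f) are on that scale, which understates changes of low segments, and are given ± SE with Benjamini-Hochberg adjusted p. A segment is called at an adjusted p under 0.05. Of the 144 segments 125 were tested, and 7 were called higher and 6 lower in Cd47ΔT T cells. Of all genes tested 8.5% were called higher and 0.875% lower, which makes 9.37% in either direction, so the count of higher segments lay below the share over all genes and that of lower segments above it. With quantile scaling the segment counts were 3 higher and 11 lower, with median-of-ratios scaling 6 and 12, and with each library scaled to its alpha and beta constant TPM 10 and 4. Over all genes the counts were 1058 higher and 109 lower as deposited, 672 and 325 with quantile scaling, 946 and 264 with median-of-ratios scaling, and 1368 and 64 with scaling to the constant segments. At an unadjusted p under 0.05 there were 30 segments, against 21.6% of all genes tested. With no filter on low values limma called none of the 144 segments, and 15 genes in all, and 30 segments had an unadjusted p under 0.05. None of the 13 calls therefore held in that fit.

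The median log2 fold change of the 125 segments was -0.11, against 0.10 over all genes tested. It was -0.33 with quantile scaling and -0.26 with median-of-ratios scaling, where the median of all genes moved to -0.08 and -0.04. With scaling to the alpha and beta constant TPM the segment median was 0.01, against 0.22 over all genes. Of the tested segments 29 were higher in Cd47ΔT libraries and 44 lower without overlap of the genotypes. Over all genes tested 37% did not overlap and were higher and 11.9% did not overlap and were lower. The 13 calls comprised 8 alpha variable segments, of which 4 were higher and 4 lower, 3 gamma constant segments, all higher, and 2 beta variable segments, both lower.

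**Figure D1:**
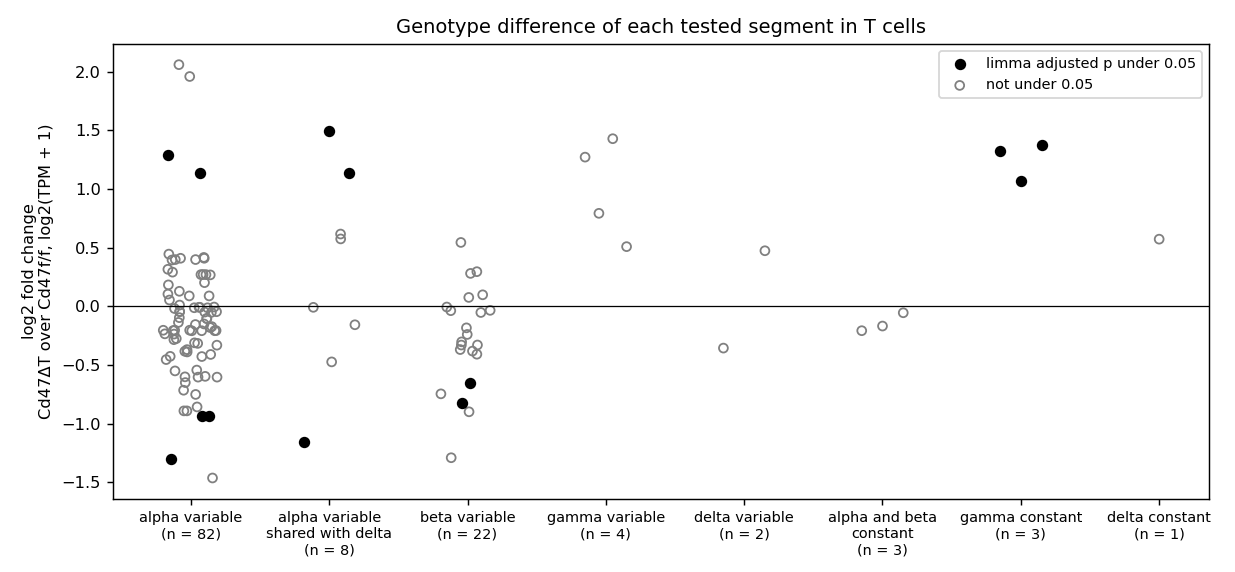
Each circle is 1 of the 125 tested segments in T cells, by class (horizontal axis) and log2 fold change, Cd47ΔT over Cd47f/f, of log2(TPM + 1) values (vertical axis). Filled circles have a limma adjusted p under 0.05. All 3 tested gamma constant segments lie above 1, the 4 gamma variable segments are positive, and 17 of 22 beta variable segments are negative.

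All 3 tested gamma constant segments were higher in Cd47ΔT T cells. Their summed level was 39.2 and 47.9 TPM in Cd47ΔT libraries, against 16.6 and 17.2 TPM in Cd47f/f libraries, 2.58 times as high on average. Each gamma constant segment encodes the shared part of a gamma chain, and each is joined by variable segments of its own cluster. Tcrg-C1, which serves the cluster of Tcrg-V4, Tcrg-V5, Tcrg-V6 and Tcrg-V7, read 14.0 and 18.1 TPM in Cd47ΔT libraries and 5.79 and 5.77 TPM in Cd47f/f libraries (log2 fold change 1.32 ± 0.21, adjusted p = 0.0161). Tcrg-C2, the partner of Trgv2, read 14.6 and 18.5 TPM in Cd47ΔT libraries and 7.67 and 6.98 TPM in Cd47f/f libraries (1.07 ± 0.20, adjusted p = 0.0271). Tcrg-C4, the partner of Tcrg-V1, read 9.69 and 11.2 TPM in Cd47ΔT libraries and 3.13 and 3.72 TPM in Cd47f/f libraries (1.37 ± 0.21, adjusted p = 0.0153). In each of the 3 the genotypes did not overlap. Tcrg-C3 stayed under 1 TPM in every library and was not tested.

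Without Cd47ΔT library 2, limma's adjusted p was 0.0857 for Tcrg-C1 and 0.281 for Tcrg-C2, so both calls ended. The Tcrg-C2 call also ended with quantile scaling (adjusted p = 0.0551). Over all alternatives the adjusted p ran from 5.40e-07 to 0.0872 for Tcrg-C1, from 5.80e-05 to 0.281 for Tcrg-C2 and from 1.15e-06 to 0.0890 for Tcrg-C4, the last of which was lost with no filter alone. Gamma segments were 0.838% and 1.12% of all constant segment TPM in Cd47ΔT libraries, against 0.336% and 0.363% in Cd47f/f libraries. Scaled to the CD3 genes, the gamma constant sum was 1.64% and 2.23% of the CD3 sum in Cd47ΔT libraries and 0.749% and 0.795% in Cd47f/f libraries. The higher gamma signal was thus present per library, per receptor transcript and per CD3 transcript. NK cell markers moved the same way, and their part in the gamma values was not tested.

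**Figure D2:**
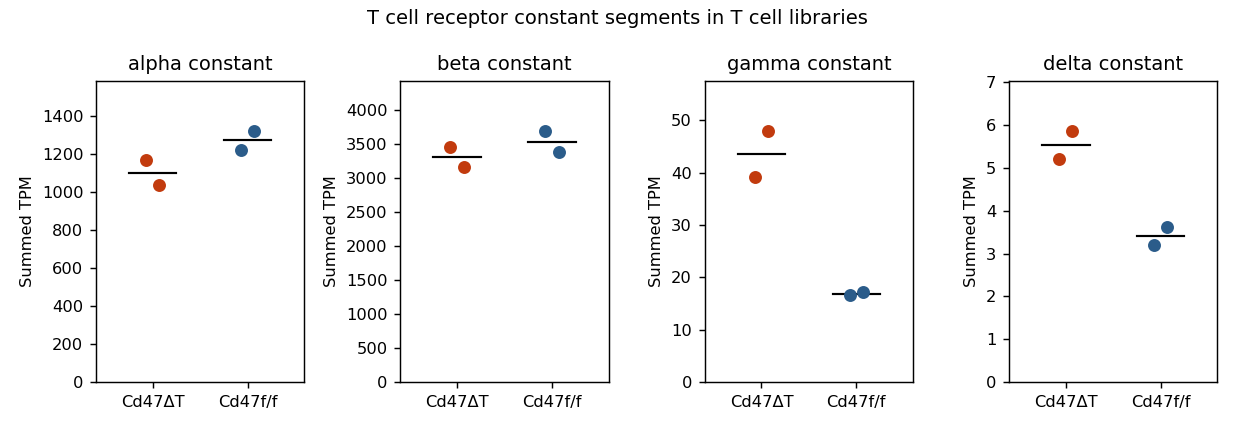
Points are the summed TPM of the constant segments of each chain in the 2 Cd47ΔT (left) and 2 Cd47f/f (right) T cell libraries, and lines are group means, with an axis from 0 in each panel. Gamma constant TPM were 39.2 and 47.9 in Cd47ΔT libraries, against 16.6 and 17.2 in Cd47f/f libraries, while the group means of the alpha and beta sums differed by less than 1.2-fold.

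Gamma variable segments were low, and none passed the threshold. They summed to 16.9 and 25.6 TPM in Cd47ΔT libraries, against 6.06 and 11.1 TPM in Cd47f/f libraries, 2.48 times as high on average. All 4 that were tested had positive log2 fold changes, with a median of 1.03. Trgv2 was the highest of them, with 7.11 and 10.8 TPM in Cd47ΔT libraries and 1.6 and 4.1 TPM in Cd47f/f libraries (1.43 ± 0.37, adjusted p = 0.0707). Tcrg-V4, used by a subset of gamma delta T cells that can make interleukin 17, read 5.92 and 8.37 TPM in Cd47ΔT libraries and 1.38 and 3.68 TPM in Cd47f/f libraries (1.27 ± 0.37, adjusted p = 0.0919). The genotypes did not overlap in either segment. Both passed without Cd47f/f library 2 (adjusted p = 0.0252 for each) and without Cd47ΔT library 1 (0.00157 for Trgv2 and 0.00875 for Tcrg-V4). Over all alternatives limma's adjusted p ran from 6.36e-07 to 0.215 for Trgv2 and from 1.82e-05 to 0.250 for Tcrg-V4.

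Tcrg-V1, common among gamma delta T cells of the spleen, read 2.58 and 2.82 TPM in Cd47ΔT libraries and 2.06 and 1.21 TPM in Cd47f/f libraries (0.51 ± 0.25, adjusted p = 0.331). The ends of Tcrg-V1 and Trgv2 are shown because they are so alike that the split of reads from this stretch is uncertain. Base differences over the rest of these 2 transcripts were not counted. Capitals mark the cysteine codon as above, and Tcrg-V4 is given beside them. Tcrg-V1 lies at chr13:19339989-19340454 (plus), Trgv2 at chr13:19336573-19337167 (minus) and Tcrg-V4 at chr13:19184974-19185506 (plus).
Tcrg-V1: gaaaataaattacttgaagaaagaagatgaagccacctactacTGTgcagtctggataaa
Trgv2: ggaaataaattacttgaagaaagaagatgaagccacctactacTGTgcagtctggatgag
Tcrg-V4: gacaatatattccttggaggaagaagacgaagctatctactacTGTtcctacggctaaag

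Some of the remaining gamma variable segments belong to cells of particular tissues. Tcrg-V5, the segment of skin-resident gamma delta T cells, read 0.78 and 2.57 TPM in Cd47ΔT libraries and 0 and 1.12 TPM in Cd47f/f libraries, with overlap (0.79 ± 0.47, adjusted p = 0.437). It passed without Cd47ΔT library 1 (adjusted p = 0.0236), within a range of 0.0236 to 0.765 over all alternatives. Tcrg-V6, of cells that arise before birth, read 0 and 0.46 TPM in Cd47ΔT libraries and 1.02 and 0.60 TPM in Cd47f/f libraries and was not tested. Tcrg-V3 stayed at or below 0.53 TPM, and Tcrg-V7, known from the gut, was at 0 in every library. An antisense gene, Gm31887, overlaps Tcrg-V4, Tcrg-V5 and Tcrg-V6 and was itself listed at 0.

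No delta segment was called. Trdc, the delta constant segment, read 5.22 and 5.86 TPM in Cd47ΔT libraries and 3.19 and 3.61 TPM in Cd47f/f libraries. The genotypes did not overlap and the mean was 1.63 times as high in Cd47ΔT libraries, but the difference did not pass (0.57 ± 0.21, adjusted p = 0.179, and 0.0763 to 1.0 over all alternatives). Trdv2-2 read 10.2 and 6.62 TPM in Cd47ΔT libraries and 5.72 and 5.61 TPM in Cd47f/f libraries (0.47 ± 0.25, adjusted p = 0.364). Trdv1 lay the other way, with 4.90 and 4.17 TPM in Cd47ΔT libraries and 5.28 and 6.96 TPM in Cd47f/f libraries (-0.36 ± 0.23, adjusted p = 0.477). The delta variable segments together were 1.28 times as high in Cd47ΔT libraries. Trdv4 read 0.91 and 1.66 TPM in Cd47ΔT libraries and 0 and 0.64 TPM in Cd47f/f libraries. Trdv5 read 0.66 and 2.48 TPM in Cd47ΔT libraries and 0.49 and 0 TPM in Cd47f/f libraries. The genotypes did not overlap in either, and neither was tested. Trdv5 overlaps Trdc on the opposite strand, and the sources used here do not give the strand setting of the counting, so these 2 values are uncertain.

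**Figure D3:**
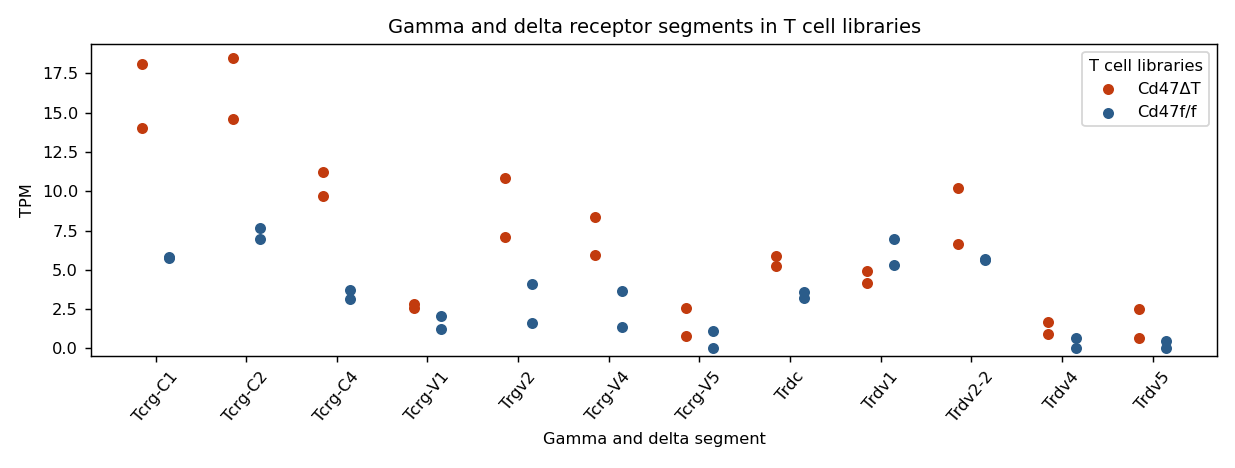
Points are TPM of 12 gamma and delta segments in the Cd47ΔT (left of each pair) and Cd47f/f (right) T cell libraries. In Tcrg-C1, Tcrg-C2, Tcrg-C4, Tcrg-V1, Trgv2, Tcrg-V4, Trdc, Trdv2-2, Trdv4 and Trdv5 both Cd47ΔT libraries lie above both Cd47f/f libraries, in Trdv1 both lie below, and in Tcrg-V5 the genotypes overlap.

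Of 8 tested genes that mark gamma delta T cells 1 was called higher and none lower, where 8.5% of all genes were called higher and 0.875% lower. The median log2 fold change of the list was 0.78, against 0.10 over all genes. The called gene was Maf, a transcription factor of interleukin 17 producing and other effector T cells, with 25.8 and 19.3 TPM in Cd47ΔT libraries and 5.15 and 7.01 TPM in Cd47f/f libraries (1.73 ± 0.23, adjusted p = 0.0116). With no filter the Maf call ended (adjusted p = 0.0818). Il17a was listed at 0 in all T cell libraries. Sox13, a transcription factor of gamma delta T cells, stayed at or below 0.24 TPM.

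Alpha and beta constant segments were close between genotypes. Trac, the alpha constant segment at chr14:54220521-54224206 (plus), read 1169 and 1037 TPM in Cd47ΔT libraries and 1224 and 1322 TPM in Cd47f/f libraries (-0.21 ± 0.10, adjusted p = 0.321). Trbc1, the first beta constant segment, read 1081 and 980.4 TPM in Cd47ΔT libraries and 1204 and 1112 TPM in Cd47f/f libraries (-0.17 ± 0.10, adjusted p = 0.425). Trbc2, the second, read 2381 and 2188 TPM in Cd47ΔT libraries and 2485 and 2264 TPM in Cd47f/f libraries (-0.06 ± 0.10, adjusted p = 0.850), and its sign turned with scaling to the constant segments and when Cd47f/f library 1 (log2 fold change 0.012) or Cd47ΔT library 2 (0.0055) was left out. Trac and Trbc1 did not overlap between genotypes, and Trbc2 did. None of the 3 passed under any alternative. Scaling to the constant segments holds the sum of these 3 fixed in every T cell library, so that setting cannot show a shared change. With Trac and Trbc1 lower there, the sign of Trbc2 had to turn. The share of Trbc1 in the beta constant TPM was 31.2% and 30.9% in Cd47ΔT libraries, against 32.6% and 32.9% in Cd47f/f libraries. Trbc1 and Trbc2 are close copies, so the split between them depends on how the authors assigned shared reads.

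The beta variable repertoire was broad in every library. The balance of its segments differed between the libraries of the genotypes, which was described and not tested. The effective number of beta segments, the exponential of the Shannon entropy of their TPM shares, was 17.1 and 17.0 in Cd47ΔT libraries and 17.6 and 17.7 in Cd47f/f libraries, out of 25. The 5 highest segments held 42.7% and 41.7% of beta variable TPM in Cd47ΔT libraries and 42.3% and 40.5% in Cd47f/f libraries. The share of beta usage that would have to move to turn one library into another was 4.14% between the Cd47ΔT libraries and 5.77% between the Cd47f/f libraries, against 8.55% to 12.4% between genotypes. Each of the 4 pairs across genotypes thus differed more than either pair within a genotype.

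**Figure D4:**
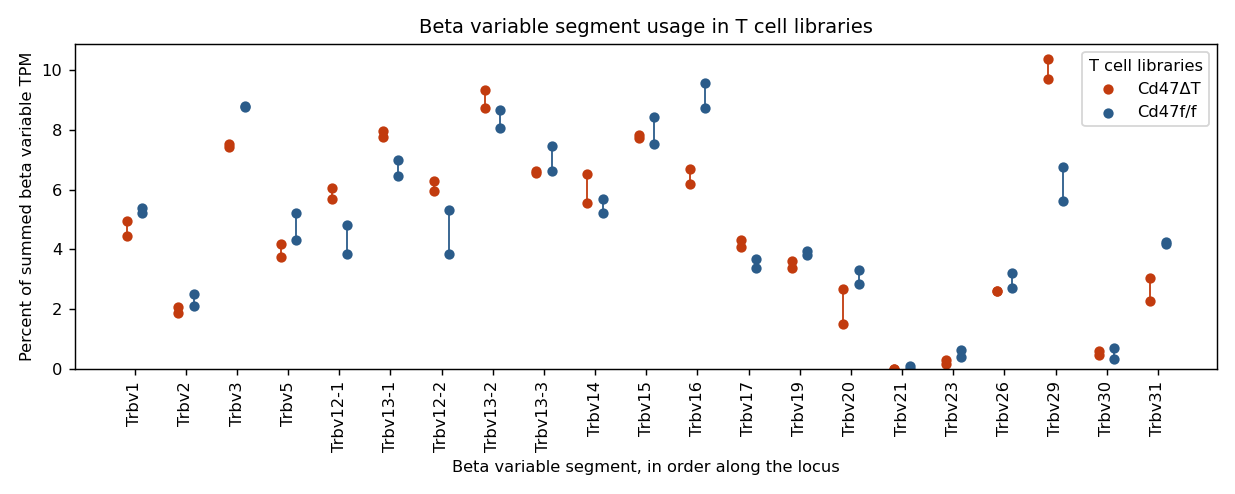
Points are the TPM of 21 beta variable segments that are not annotated as pseudogenes, as percent of the summed beta variable TPM of each Cd47ΔT (left of each pair) and Cd47f/f (right) T cell library, in order along chromosome 6. Trbv29 was highest in Cd47ΔT libraries at 10.4% and 9.69%, against 5.63% and 6.77% in Cd47f/f libraries, and Trbv16 stood at 6.18% and 6.70% in Cd47ΔT libraries, against 9.57% and 8.75% in Cd47f/f libraries.

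Of 22 tested beta variable segments 2 were called lower and none higher, where 0.875% of all genes were called lower and 8.5% higher. Of these segments 17 were negative, and the median log2 fold change was -0.27, against 0.10 over all genes. Trbv16 read 132 and 134 TPM in Cd47ΔT libraries and 218 and 203 TPM in Cd47f/f libraries (-0.66 ± 0.11, adjusted p = 0.0172). It was the highest beta segment in Cd47f/f library 1, and its share of beta variable TPM was 6.18% and 6.70% in Cd47ΔT libraries, against 9.57% and 8.75% in Cd47f/f libraries. The call ended without Cd47ΔT library 1 (adjusted p = 0.138), without Cd47ΔT library 2 (0.103), without the variance trend (0.0586) and with scaling to the constant segments (0.0503), within 2.05e-05 to 0.138 over all alternatives. Its log2 fold change stayed between -0.81 and -0.53.

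Trbv31, which rearranges by inversion, read 64.5 and 45.0 TPM in Cd47ΔT libraries and 96.0 and 96.8 TPM in Cd47f/f libraries (-0.83 ± 0.19, adjusted p = 0.0442). Its usage was 3.02% and 2.25% of beta variable TPM in Cd47ΔT libraries, against 4.23% and 4.17% in Cd47f/f libraries. The genotypes did not overlap by level or by share. The call lay near the threshold and held in 11 of 18 alternatives. It ended without Cd47f/f library 1 (adjusted p = 0.0959), without Cd47f/f library 2 (0.0720), without Cd47ΔT library 2 (0.368), with a pseudocount of 0.1 (0.0538), with quantile scaling (0.0520) and without the variance trend (0.0868), within 2.53e-06 to 0.368.

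Trbv29, one of the segments that invariant NKT cell receptors can use, was the highest beta segment in both Cd47ΔT libraries. It read 221 and 194 TPM there and 128 and 157 TPM in Cd47f/f libraries, which did not overlap, but it did not pass (0.54 ± 0.14, adjusted p = 0.0697). Its usage was 10.4% and 9.69% of beta variable TPM in Cd47ΔT libraries, against 5.63% and 6.77% in Cd47f/f libraries, 1.62 times as high on average. It passed without Cd47f/f library 2 (adjusted p = 0.0244) and with scaling to the constant segments (0.0286), and limma's adjusted p ran from 0.000629 to 0.589 over all alternatives. Trbv12-1, Trbv12-2, Trbv13-1, Trbv13-2 and Trbv17 also had higher shares in Cd47ΔT libraries without overlap. Shares of a chain sum to the same total in each library, so a share can be higher without a higher level. By level Trbv13-2 overlapped between genotypes (log2 fold change -0.04). By level 5 of 22 tested beta variable segments were higher without overlap and 13 lower, against 37% and 11.9% of all genes tested. Trbv12-1, named after its values were seen, held 5.70% and 6.05% of beta usage in Cd47ΔT libraries, against 3.84% and 4.82% in Cd47f/f libraries. Trbv12-2, likewise, held 5.96% and 6.27% in Cd47ΔT libraries, against 3.85% and 5.31% in Cd47f/f libraries.

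Trbv3 read 159 and 151 TPM in Cd47ΔT libraries and 200 and 204 TPM in Cd47f/f libraries (-0.38 ± 0.10, adjusted p = 0.0774), with 7.44% and 7.52% of beta usage in Cd47ΔT libraries against 8.80% and 8.78% in Cd47f/f libraries. It passed without Cd47f/f library 2 (adjusted p = 0.0460) and with quantile scaling (0.0335), within 0.0288 to 0.858 over all alternatives. Trbv15 read 168 and 155 TPM in Cd47ΔT libraries and 192 and 175 TPM in Cd47f/f libraries, which did not overlap, and did not pass (-0.18 ± 0.11, adjusted p = 0.451). Trbv23 was a low segment, with 3.05 and 5.55 TPM in Cd47ΔT libraries and 14.3 and 9.36 TPM in Cd47f/f libraries (-1.29 ± 0.32, adjusted p = 0.0595). Without Cd47f/f library 2 its adjusted p was 0.0460 and without Cd47ΔT library 2 it was 0.00244, within 3.67e-06 to 0.231. Shares of Trbv1, Trbv2, Trbv5, Trbv19, Trbv20, Trbv22 and Trbv26 were lower in Cd47ΔT libraries as well without overlap. Of these, Trbv22 is an annotated pseudogene near the floor, at a mean of 0.4 TPM in Cd47ΔT and 1.51 TPM in Cd47f/f libraries. Trbv5 overlaps the long noncoding RNA gene 5830405F06Rik on the same strand, which read 99.5 to 140 TPM, so its value is uncertain.

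None of the segments of other invariant receptors was called. Small positive log2 fold changes of Trbv13-1 and Trav1 turned sign under other scalings. Trbv13-2, used by invariant NKT cells, read 199 and 175 TPM in Cd47ΔT libraries and 183 and 201 TPM in Cd47f/f libraries (-0.04 ± 0.12, adjusted p = 0.927), and its sign turned with scaling to the constant segments and without Cd47f/f library 2 (log2 fold change 0.03) or Cd47ΔT library 2 (0.05). Trbv13-1 read 166 and 160 TPM in Cd47ΔT libraries and 159 and 150.0 TPM in Cd47f/f libraries (0.08 ± 0.11, adjusted p = 0.805), negative with quantile and median-of-ratios scaling. Trbv13-3, of mucosal-associated invariant T cells as well as NKT cells, read 141 and 132 TPM in Cd47ΔT libraries and 169 and 154 TPM in Cd47f/f libraries (-0.24 ± 0.11, adjusted p = 0.305). Trbv1, of NKT cells, averaged 96.9 TPM in Cd47ΔT and 122 TPM in Cd47f/f libraries (-0.33 ± 0.11, adjusted p = 0.145). It passed with quantile (0.0451) and median-of-ratios scaling (0.0480). Trbv19, of mucosal-associated invariant T cells, averaged 72.0 TPM in Cd47ΔT and 89.2 TPM in Cd47f/f libraries (-0.30 ± 0.12, adjusted p = 0.197). The genotypes did not overlap in Trbv1 or Trbv19. Trav1, the alpha segment of mucosal-associated invariant T cells, read 12.2 and 7.16 TPM in Cd47ΔT libraries and 8.39 and 8.96 TPM in Cd47f/f libraries. It overlapped between genotypes, and its sign turned with quantile scaling, with median-of-ratios scaling and without Cd47ΔT library 1 (log2 fold change -0.25).

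The alpha segment of invariant NKT cells is annotated as a pair of copies, Trav11 and Trav11d, which is why their ends are shown. The capital marks the single base by which the Trav11 transcript is longer, and the rest of the Trav11d transcript is contained in it. A second pair, Trav7-2 and Trav7d-2, differs in the same manner. Trav11 lies at chr14:53519303-53519859, Trav11d at chr14:52824357-52824912, Trav7-2 at chr14:53390635-53391142 and Trav7d-2 at chr14:52683964-52684472, all on the plus strand.
Trav11: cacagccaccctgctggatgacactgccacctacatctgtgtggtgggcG
Trav11d: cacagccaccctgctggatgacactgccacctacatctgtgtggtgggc
Trav7d-2: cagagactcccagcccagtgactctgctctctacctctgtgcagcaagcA
Trav7-2: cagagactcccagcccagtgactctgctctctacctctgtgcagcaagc

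In each library 1 copy of either pair held all of the signal. Trav11d read 14.2 and 12.1 TPM in Cd47ΔT libraries and 0 and 10.4 TPM in Cd47f/f libraries. Trav11 read 0 in both Cd47ΔT libraries and in Cd47f/f library 2, and 10.9 TPM in Cd47f/f library 1. Their sum was 14.2 and 12.1 TPM in Cd47ΔT libraries and 10.9 and 10.4 TPM in Cd47f/f libraries, so Cd47f/f library 1 carried the signal under the other copy's name. As deposited Trav11d had a log2 fold change of 2.06 (adjusted p = 0.326), the largest of all tested segments, and the sum of the pair had 0.27 ± 0.19 (adjusted p = 0.523). Without Cd47f/f library 2, Trav11d alone would have had an adjusted p of 0.00490, without Cd47ΔT library 1 of 0.000134 and without Cd47ΔT library 2 of 1.83e-05. The sum over copies was an alternative added after the data were seen.

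Trav7-2 and Trav7d-2 showed the same pattern in the same library. Trav7-2 read 31.8 and 22.2 TPM in Cd47ΔT libraries and 0 and 49.4 TPM in Cd47f/f libraries, and Trav7d-2 was above 0 in Cd47f/f library 1 alone, at 30.3 TPM. The sum was 31.8 and 22.2 TPM in Cd47ΔT libraries and 30.3 and 49.4 TPM in Cd47f/f libraries (-0.53 ± 0.28, adjusted p = 0.361). Trav7-2 and Trav11d therefore gave the only 2 log2 fold changes above 1.9 among all segments, and in both of them Cd47f/f library 1 was at 0.

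**Figure D5:**
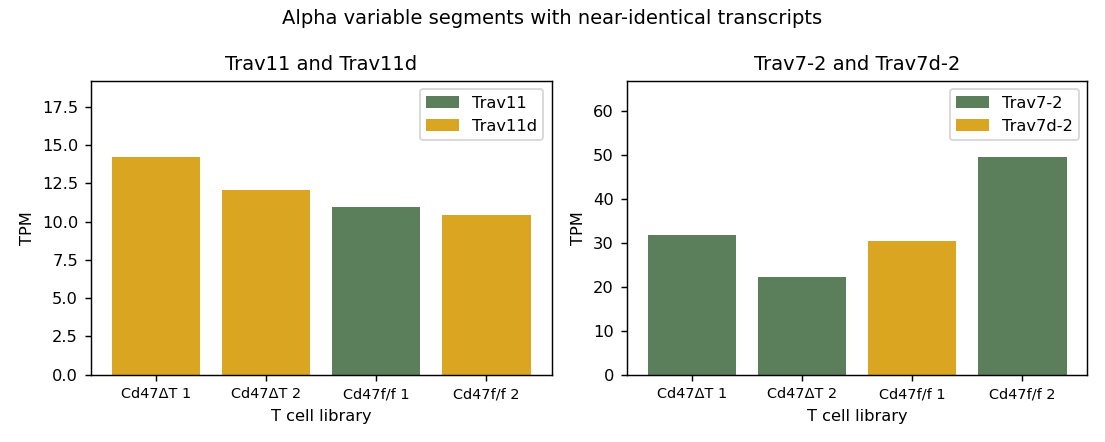
Stacked bars are TPM of Trav11 and Trav11d (left) and of Trav7-2 and Trav7d-2 (right) in the 2 Cd47ΔT libraries, then the 2 Cd47f/f libraries. Each bar has a single colour, and only Cd47f/f library 1 differs in which copy holds the signal.

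Of 9 tested genes of invariant NKT cells 3 were called higher and none lower, where 8.5% of all genes were called higher. The median log2 fold change of the list was 0.77, against 0.10 over all genes. Klrb1c, the NK1.1 antigen, read 16.5 and 28.8 TPM in Cd47ΔT libraries and 2.52 and 2.72 TPM in Cd47f/f libraries (2.66 ± 0.29, adjusted p = 0.00705). Tbx21, the T-bet transcription factor, read 36.0 and 41.9 TPM in Cd47ΔT libraries and 14.2 and 19.3 TPM in Cd47f/f libraries (1.18 ± 0.20, adjusted p = 0.0190). Il2rb, a chain of the interleukin 2 and 15 receptors, read 312 and 352 TPM in Cd47ΔT libraries and 116 and 185 TPM in Cd47f/f libraries (1.17 ± 0.22, adjusted p = 0.0264). All 3 are also genes of NK cells, and Klrb1c stands in both lists. Ncr1, an NK cell receptor that is not part of the NKT list, read 13.0 and 29.8 TPM in Cd47ΔT libraries and 0.39 and 1.5 TPM in Cd47f/f libraries. With no filter the calls of Klrb1c, Tbx21 and Il2rb ended (adjusted p = 0.0743, 0.0904 and 0.123), and that of Il2rb also ended without the variance trend (0.0560). The other tested genes of the list were not called. They were Slamf6 (log2 fold change -0.04), Cxcr6 (0.10), Slamf1 (0.18), Sh2d1a (0.18), Il4 (0.77) and Ifng (0.92). Zbtb16, the PLZF factor of NKT cells, stayed at or below 1.71 TPM and was not tested.

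Alpha variable usage was spread over many segments. The effective number was 69.1 and 71.4 in Cd47ΔT libraries and 69.5 and 72.4 in Cd47f/f libraries, out of 101, with overlap. The share of alpha usage that differed was 11.2% and 13.9% within genotypes and 12.9% to 18.0% between them. With copies summed, it was 10.9% between the Cd47ΔT libraries, 9.78% between the Cd47f/f libraries and 12.3% to 14.1% between genotypes. Of 101 alpha variable segments 38 belonged to 19 pairs in which one transcript is identical to or contained in the other, and 15 of these pairs had equal TPM in every T cell library. Members of such pairs are not separate measurements. With copies summed, limma called 5 of 113 tested segments higher and 5 lower, and of 78 alpha variable segments 2 higher and 3 lower. In that fit 1063 of all 12441 genes were called higher and 108 lower.

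The highest alpha variable segment by mean was Trav16n, with 44.1 and 37.0 TPM in Cd47ΔT libraries and 25.1 and 34.5 TPM in Cd47f/f libraries. Its genotypes did not overlap, and it did not pass (0.44 ± 0.20, adjusted p = 0.270), though it did without Cd47f/f library 2 (0.0465). Trav12-2 read 31.9 and 34.5 TPM in Cd47ΔT libraries and 20.1 and 36.1 TPM in Cd47f/f libraries, with overlap (0.29 ± 0.27, adjusted p = 0.671). Its sign turned without Cd47f/f library 1 (log2 fold change -0.12), and it passed without Cd47f/f library 2 (adjusted p = 0.0300). The copies Trav6-6 and Trav6d-6 each read 27.2 and 28.1 TPM in Cd47ΔT libraries and 30.7 and 33.5 TPM in Cd47f/f libraries and did not pass (-0.21 ± 0.14, adjusted p = 0.528). Trav14n-3 and Trav14-2 were lower at almost the same levels. Trav14n-3 read 21.6 and 21.3 TPM in Cd47ΔT libraries and 32.8 and 33.3 TPM in Cd47f/f libraries (-0.60 ± 0.14, adjusted p = 0.0548), and passed without Cd47f/f library 2 (0.0382) and with quantile scaling (0.0377), median-of-ratios scaling (0.0261) and scaling to protein-coding genes (0.0456), within 0.0130 to 0.592. Trav14-2 read 22.9 and 21.4 TPM in Cd47ΔT libraries and 32.5 and 33.0 TPM in Cd47f/f libraries (-0.54 ± 0.15, adjusted p = 0.0760), and passed with quantile (0.0488) and median-of-ratios scaling (0.0342), within 0.0293 to 0.800.

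Of 90 tested alpha variable segments 4 were called higher and 4 lower, where 8.5% of all genes were called higher and 0.875% lower. Of these segments 61 were negative, and the median log2 fold change was -0.14, against 0.10 over all genes. Among the 8 alpha segments that can also serve the delta chain, 2 were called higher and 1 lower. Of 5 tested members of the Trav15 family 3 were called higher and none lower, but 2 of these 3 are identical copies with equal TPM. With copies summed the family held 1 of the 2 higher alpha calls, beside Trav13d-3. The family summed to 27.6 and 23.5 TPM in Cd47ΔT libraries, against 12.6 and 17.4 TPM in Cd47f/f libraries. Trav15d-1-dv6d-1, shown here as the called member with the highest level, can serve both chains and lies at chr14:52863299-52863936 (plus), with the cysteine codon in capitals.
Trav15d-1-dv6d-1: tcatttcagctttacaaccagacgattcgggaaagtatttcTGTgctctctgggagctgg

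Trav15d-1-dv6d-1 read 9.57 and 6.72 TPM in Cd47ΔT libraries and 2.98 and 1.59 TPM in Cd47f/f libraries (1.49 ± 0.30, adjusted p = 0.0314). Its copy Trav15n-1 was at 0 in 3 libraries and at 2.57 TPM in Cd47f/f library 2. Summed with that copy it gave 9.57 and 6.72 TPM in Cd47ΔT libraries and 2.98 and 4.16 TPM in Cd47f/f libraries and no longer passed (1.0 ± 0.26, adjusted p = 0.0690). The call also ended with quantile scaling (0.115) and median-of-ratios scaling (0.0675), within 2.29e-07 to 0.134 over all alternatives. Trav15d-2-dv6d-2 and Trav15n-2 are identical copies and each read 3.77 and 3.71 TPM in Cd47ΔT libraries and 0.90 and 1.46 TPM in Cd47f/f libraries (1.13 ± 0.24, adjusted p = 0.0366). Those calls ended without Cd47f/f library 1 (adjusted p = 0.0808), without Cd47ΔT library 1 (0.0878), without Cd47ΔT library 2 (0.0820), with quantile scaling (0.0921) and with a pseudocount of 0.1 (0.0544), within 0.000334 to 0.123. Summed, the copies had an adjusted p of 0.0245. Trav15-1-dv6-1, the member with the highest mean over the T cell libraries, overlapped between genotypes, at 7.01 and 4.99 TPM in Cd47ΔT libraries and 5.73 and 7.87 TPM in Cd47f/f libraries (-0.16 ± 0.25, adjusted p = 0.832), and its sign turned without Cd47f/f library 2 (log2 fold change 0.04) or Cd47ΔT library 2 (0.05). Trav15-2-dv6-2 read 3.52 and 4.32 TPM in Cd47ΔT libraries and 2.11 and 2.49 TPM in Cd47f/f libraries, which did not overlap, and did not pass (0.57 ± 0.22, adjusted p = 0.207).

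Trav13d-3 was the fourth alpha segment called higher. It read 1.49 and 1.40 TPM in Cd47ΔT libraries and was listed at 0 in both Cd47f/f libraries, so no fold is given (limma adjusted p = 0.0210). It passed the filter through the Cd47ΔT libraries alone, so a call could only be higher. The call held in 13 of the 15 alternatives that tested it, and ended with no filter (adjusted p = 0.0608) and without Cd47f/f library 1. With a filter of 5 TPM or without either Cd47ΔT library, Trav13d-3 was not tested. The antisense gene Gm30214 overlaps Trav13d-3 and read at most 0.16 TPM. Of 9 tested members of the Trav13 family it was the only call, where 8.5% of all genes were called higher. Of these members 5 were positive and 4 negative. Trav13n-3 lay the other way without overlap, at a mean of 2.385 TPM in Cd47ΔT and 4.295 TPM in Cd47f/f libraries, and was not called.

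Of 8 tested members of the Trav4 family 3 were called lower and none higher, where 0.875% of all genes were called lower. However, 2 of these 3 are identical copies. The family summed to 53.5 and 50.1 TPM in Cd47ΔT libraries, against 64.6 and 66.0 TPM in Cd47f/f libraries. Trav4-2 read 1.32 and 1.92 TPM in Cd47ΔT libraries and 4.92 and 5.91 TPM in Cd47f/f libraries (-1.30 ± 0.24, adjusted p = 0.0255). The identical copies Trav4d-4 and Trav4n-4 each read 5.10 and 4.32 TPM in Cd47ΔT libraries and 10.1 and 9.71 TPM in Cd47f/f libraries (-0.94 ± 0.20, adjusted p = 0.0387). Trav4-3, named after its values were seen, lay the other way, at 15.9 and 13.1 TPM in Cd47ΔT libraries and 11.5 and 12.2 TPM in Cd47f/f libraries. The Trav4-2 call ended without Cd47f/f library 1 (adjusted p = 0.0563), Cd47f/f library 2 (0.0512) or Cd47ΔT library 1 (0.0972), within 1.78e-05 to 0.112. Those of Trav4d-4 and Trav4n-4 ended without Cd47f/f library 1 (0.0690), Cd47ΔT library 1 (0.152) or Cd47ΔT library 2 (0.394) and with scaling to the constant segments (0.0666), within 0.00160 to 0.394. Outside this family, the copies Trav6d-7 and Trav6n-7 each read 1.76 and 6.76 TPM in Cd47ΔT libraries and 7.15 and 8.04 TPM in Cd47f/f libraries and did not pass (-0.89 ± 0.47, adjusted p = 0.362), though they did without Cd47ΔT library 2 (0.00298).

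Trav21-dv12, which both chains can use, read 4.67 and 7.15 TPM in Cd47ΔT libraries and 13.5 and 14.9 TPM in Cd47f/f libraries (-1.16 ± 0.24, adjusted p = 0.0346). The genotypes did not overlap. Its call ended without Cd47f/f library 1 (adjusted p = 0.0692), Cd47f/f library 2 (0.0619) or Cd47ΔT library 1 (0.265), within 2.01e-05 to 0.265. It lay opposite in direction to the called Trav15 segments, so the segments shared by both chains did not move as 1 group, and their sum was 91.8 and 84.8 TPM in Cd47ΔT libraries and 83.6 and 95.4 TPM in Cd47f/f libraries.

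The genes that build the receptor, carry its signal or bind its loci were compared in the same fit, in which 8.5% of all genes were called higher and 0.875% lower. Of 10 tested genes of V(D)J recombination and end joining none was called, with a median log2 fold change of 0.08. The recombinase genes Rag1 and Rag2 stayed at or below 0.16 TPM, as did Ptcra, the partner of the beta chain in immature thymocytes. Dntt, the enzyme that adds bases at the joints, read 1.5 and 1.85 TPM in Cd47ΔT libraries and 5.47 and 3.43 TPM in Cd47f/f libraries and did not pass (-1.0 ± 0.27, adjusted p = 0.0734), though it did without Cd47f/f library 2 (0.0364) and with quantile scaling (0.0486), within 0.00172 to 0.303. Of the 4 tested CD3 genes none was called, and the median was 0.06. Of 12 transcription factors of the receptor loci 2 were called lower, Tcf7 (-0.67 ± 0.09, adjusted p = 0.0118) and Lef1 (-0.66 ± 0.11, adjusted p = 0.0203), which bind the alpha locus enhancer. The Lef1 call ended without Cd47ΔT library 1 (adjusted p = 0.169), in 1 fit of all libraries (0.358), without the variance trend (0.0716) and with scaling to the constant segments (0.0550), within 2.14e-06 to 0.358 over all alternatives. With no filter the calls of Tcf7 (0.0760) and Lef1 (0.0884) both ended, and that of Tcf7 also ended without the variance trend (0.0557).

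Dendritic cells do not rearrange the receptor loci, and in cDC2s nearly all segments were listed at 0. Of the 144 segments 139 were at 0 TPM in all 6 cDC2 libraries. The other 5 were Trac, Trbc1, Trbv3, Trbv19 and Trav2. Trac read 0, 4.03 and 0 TPM in Cd47ΔT libraries and 0.18, 0.16 and 0.29 TPM in Cd47f/f libraries, so a single Cd47ΔT library stood apart. Trbv3 at 1.79 TPM and Trav2 at 0.70 TPM were seen in Cd47ΔT library 3 alone, and Trbc1 at 0.81 TPM and Trbv19 at 1.36 TPM in Cd47f/f library 2 alone. No segment passed the filter of 1 TPM in at least 3 cDC2 libraries, under which 0.63% of all genes were called. With no filter 0 of 5 segments had an adjusted or an unadjusted p under 0.05, where 0.0327% of all genes were called. No segment could enter a test of whether the genotype effect differs between the cell types.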

How the data were processed

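RNA sequencing of splenic T cells (4 libraries) and cDC2s (6 libraries) was analysed from the deposited table of TPM made by the authors. The submitters' processing notes name STAR, RSEM, DESeq2 and GRCm38, without versions. T cell libraries used RNeasy mini and TruSeq stranded mRNA kits and cDC2 libraries RNeasy micro and SMART-seq stranded kits, per the labels' protocols, so cell type and kit cannot be told apart. The sources used here do not give the annotation release or strand setting, which leaves values of overlapping or near-identical segments uncertain. Depth is unknown, so no interval for counting error is given. GENCODE M21 gave symbols, classes, positions and sequences (45143 of 45706 identifiers matched).

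Libraries were grouped by the labels' cell type and genotype. Genes that reached 1 TPM in 2 T cell or 3 cDC2 libraries were tested within a cell type with limma 3.58.1 on log2(TPM + 1) (variance trend, genotype only) in R 4.3.3, with Benjamini-Hochberg adjustment over all genes. Sums and shares were described with no test. The segments and lists were chosen with earlier results of these data known. Segments named were all constant and all called segments, the 6 highest alpha and beta and 5 highest gamma and delta variable segments, the largest differences without overlap (up to 8 per direction), those of invariant T cells and the highest in cDC2s. Of each list the called genes and up to 3 others were named, and of the NKT list all tested genes. All other segments, such as Trav7-2, Trav7d-2, Trav15n-1 and Trav15-1-dv6-1, were named after their values were seen.

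As alternatives, the pseudocount was set to 0.1 or 5, the filter dropped or set to 5 TPM, and libraries scaled by quantiles, median of ratios, protein-coding genes, CD3 genes or constant segments. The variance trend was dropped or made robust, all libraries were fitted together, replicate numbers were blocked, and each library was left out. Summing copies was added after the data were seen. Where a T cell group then held 1 library, its spread was taken from the other group. The fit was tested on simulated data. Python 3.11.15, pandas 2.3.3 and matplotlib 3.10.9 made the tables and figures. Values of a member of the gamma delta T cell list are not reported here; the list counts include it.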

Additional observations from a re-analysis of the deposited data

How the results depend on the processing

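Depth limits what low segments can show, and TPM keep no record of it. In T cells 1058 genes were called higher and 109 lower. With no filter the counts were 14 and 1, with quantile scaling 672 and 325, with a 5 TPM filter 679 higher, with median-of-ratios scaling 264 lower and with scaling to the constant segments 64 lower. Leaving out a library gave 665 to 1736 higher and 58 to 158 lower. For the segments, 7 were called higher and 6 lower. The counts were 0 and 0 with no filter, 3 and 11 with quantile scaling, 4 higher with a 5 TPM filter, 12 lower with median-of-ratios scaling, and 4 to 16 higher and 1 to 7 lower without 1 library. In cDC2s segments entered only the fit with no filter, where 0 of 5 were called. The cause was not tested in these cases, except that leaving out a library leaves 1 in a group.

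In the fit with a replicate block, 1986 genes were higher and 310 lower, and 14 segments were higher and 20 lower. The labels give the genotypes shared numbers with no stated pairing. Deviations of same-numbered T cell libraries correlated at r = 0.19 from 1 independent pair, and those of cDC2s at -0.0438, 0.0591 and 0.119. With so few pairs these values cannot decide whether same-numbered libraries share more than a number.

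The log2 ratio of summed gamma constant TPM was 1.37, and 1.21 to 1.51 without 1 library. That of delta constant TPM was 0.70, and 0.36 over variable segments with or without pseudogenes. The effective number of beta segments differed by -0.5855, and by -0.543 over segments at 1 TPM in every T cell library or on average. Signs of log2 fold changes turned with scaling to the constant segments for Trbc2 (0.067) and Trbv13-2 (0.084). Trbc2 is itself part of the sum that this scaling holds fixed. They turned for Trbv13-1 with quantile (-0.030) and median-of-ratios scaling (-0.080), and for Trav1 likewise (-0.15 and -0.036). Without 1 library, values ran from -0.12 to 0.012 for Trbc2, from -0.13 to 0.055 for Trbv13-2 from -0.25 to 0.45 for Trav1, from -0.12 to 0.70 for Trav12-2 and from -0.37 to 0.052 for Trav15-1-dv6-1. Apart from the sign of Trbc2 with scaling to the constant segments, the cause was not tested. Among single segments and genes, 807 values under an alternative kept direction and side of the threshold, 66 lost the call, 52 gained one and 14 turned sign.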

Other observations

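A pair of further T cell receptor variable genes on chromosome 14 carry clone names and so fall outside the segments described above. C920008G01Rik read 9.79 and 5.90 TPM in Cd47ΔT T cell libraries and 9.29 and 8.24 TPM in Cd47f/f libraries, and B230359F08Rik read 1.65 and 1.44 TPM in Cd47ΔT libraries and 1.30 and 2.78 TPM in Cd47f/f libraries. Neither passed with limma (adjusted p = 0.820 and 0.804), and both were at 0 in all cDC2 libraries. The ratio of beta to alpha constant TPM was 2.96 and 3.05 in Cd47ΔT libraries and 3.01 and 2.55 in Cd47f/f libraries.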
